A study of Mus musculus with 12 samples.

Results

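The genes described here belong to families of enzymes that add or remove methyl and acetyl groups on histones. Some members, such as Setd6 and Sirt5, are known mainly for other substrates and are still counted with their family. They were taken from 12 Affymetrix expression arrays of mouse blastocysts in 3 groups of 4. A probe set, the array's unit of measurement for a transcript, was a member when it was annotated to a single gene whose symbol belongs to the Kdm, Kat, Kmt, Setd, Prmt or Sirt families, or is Ehmt1, Ehmt2, Suv39h1, Suv39h2, Nsd1, Dot1l, Ep300 or Crebbp. This rule found 164 probe sets of 65 genes among 45037 probe sets of 18193 genes, and it used no measured value. Of these, 132 probe sets of 62 genes had a mean signal of at least 100 and were tested. Kdm4b, Sirt2 and Prmt8 had no probe set at that level, and no probe set was annotated to Suv39h1 alone, so it has no value here.

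The control group held normal blastocysts with no treatment named in the labels. The second group received 20 pulses of Ca2+, and the third was cultured in medium free of Ca2+. The series title refers to the pattern of Ca2+ oscillations in fertilized eggs, and transcripts were measured at the blastocyst stage. The labels do not say when the pulses or the Ca-free medium were applied. The labels name no strain, age, sex or number of embryos per array. RNA came from whole blastocysts, so fewer cells of a type and less RNA per cell cannot be told apart.

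Histone marks are written and erased by opposing enzymes. Lysine methyltransferases place marks that accompany active genes, such as methylation of lysine 4 of histone H3, or repressed chromatin, such as methylation of its lysine 9, and the Kdm demethylases remove them. Acetyltransferases such as Ep300 and Crebbp open chromatin at promoters and enhancers, and sirtuins remove acetyl groups using NAD. In the early mouse embryo these marks are rebuilt after fertilization and differ between the inner cell mass and the trophectoderm of the blastocyst.

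All 12 listed blastocyst markers had a mean signal of at least 100, and their summed signal was 54180 to 56690 in controls, 54190 to 55650 after 20 pulses and 54110 to 56390 in Ca-free medium. Krt8 and Krt18, with mean signals of 13270 and 10760, made up much of that sum. In Ca-free medium 2 of the 12 were higher than in controls, Pou5f1 (log2 change 0.20, adjusted p = 0.0329) and Cdx2 (0.28, adjusted p = 0.0199), and 2 were lower, Eomes (-0.70, adjusted p = 0.000545) and Gata4 (-0.69, adjusted p = 0.00238). Sox17 was higher after 20 pulses (1.00, adjusted p = 0.0269). Signals here are array intensities scaled to the same trimmed mean, and a log2 change is the difference of mean log2(signal + 32). Summed markers of oviduct and uterine epithelium were 1367 to 1525 in controls and 675 to 949 in Ca-free medium, with 5 of 6 tested lower and Muc1 lowest at a mean of 59.0. Markers of cumulus cells summed to 1020 to 1111 in controls and 618 to 678 in Ca-free medium, where 2 of 2 tested were lower. Of the oocyte markers, 2 of 7 were lower there, and the only blood cell marker tested did not pass. Of those called lower, Foxj1, Pax8 and Bmp15 averaged 84.5, 93.2 and 85.8 in Ca-free medium. They reached a mean of 100 over all arrays only through the other groups. These counts stand beside 28.8% of all genes called lower there, and 37.2% of all probe sets with signals from 100 to 243. The median deposited signal was 38.29 to 39.2 in Ca-free medium, 49.37 to 53.05 in controls and 47.35 to 53.65 after 20 pulses. Controls 3 and 4 stood apart from controls 1 and 2. Their ratio of 3' to 5' Actb signal was 2.64 to 2.69, against 1.59 to 1.67 in controls 1 and 2 and 1.49 to 1.88 in the other 8 arrays. The Ca-free group as a whole stood apart as well. Its Gapdh 3' to 5' ratio was 2.89 to 5.05, against 5.76 to 8.90 in controls and 5.70 to 7.58 after 20 pulses. Its 18S ribosomal RNA signal was 4003 to 5780, against 878 to 2559 and 2653 to 3688, and the mean hybridization control signal was 1158 to 1245, against 866 to 1024 and 771 to 945. Within the group, Ca-free arrays 1 and 4 had Gapdh ratios of 4.73 to 5.05 and arrays 2 and 3 of 2.89 to 3.10. The part of these differences in the results below was not tested, beyond the values given with each pair of arrays alone.

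In Ca-free medium, 7 members were higher and 14 lower than in controls (limma with Benjamini-Hochberg adjustment over all probe sets tested, adjusted p under 0.05, each gene counted by its brightest tested probe set). That is 11.3% and 22.6% of the 62 members, beside 12.3% and 28.8% of all 13599 genes tested, so the share of members called was near or below the background. The members' median log2 change was -0.07, against -0.13 over all genes. Without overlap between the groups, 6 members lay above and 12 below the controls, beside 10.8% and 26.3% of all genes. By role, 3 of 23 lysine methyltransferases were higher and 6 lower, and the same counts were 0 and 2 of 7 arginine methyltransferases and 2 and 3 of 9 acetyltransferases. Of 17 demethylases 2 were higher and 1 lower, and of 6 sirtuins 0 were higher and 2 lower.

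**Figure D1:**
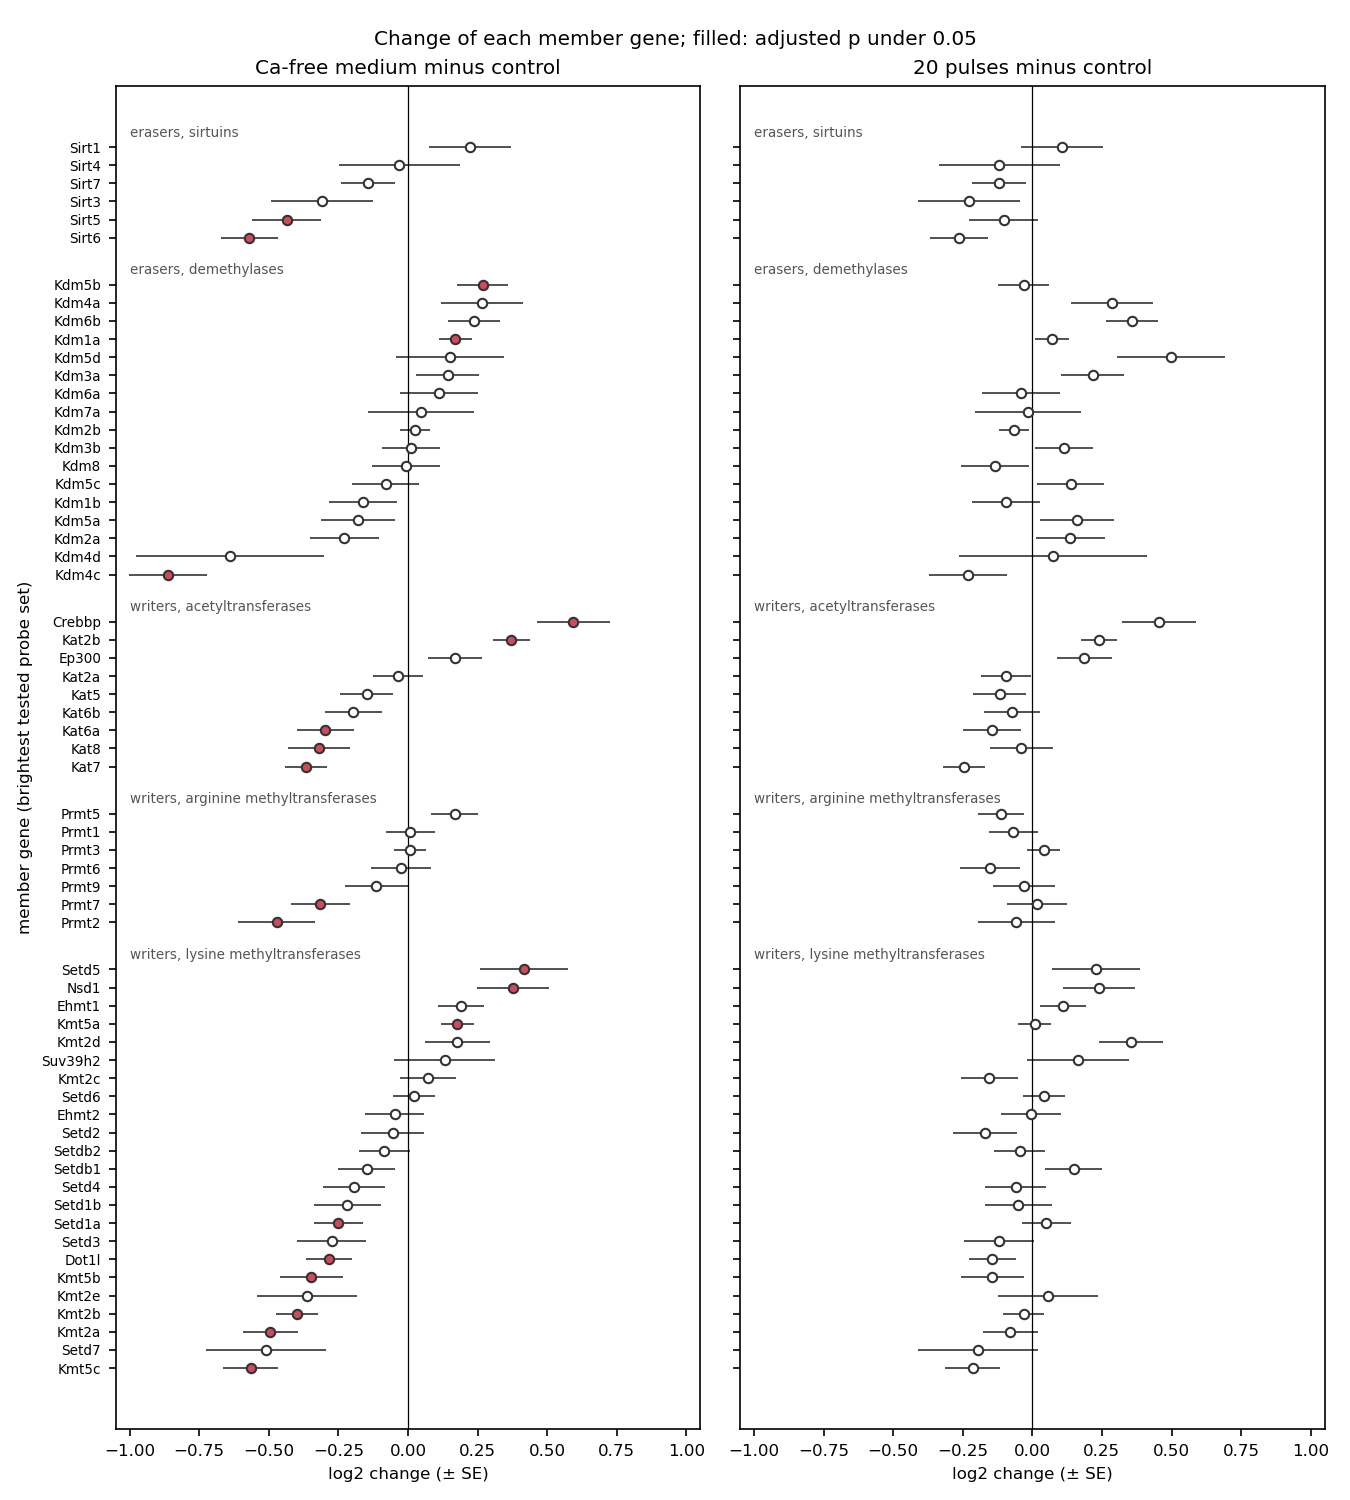
Log2 change (± SE) of the brightest tested probe set of the 62 members, Ca-free medium minus control on the left and 20 pulses minus control on the right, grouped by role. Filled points have an adjusted p under 0.05, which holds for 21 members on the left (7 higher, 14 lower) and none on the right.

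The size and direction of these counts depended on how the arrays were scaled. Scaling to the trimmed mean puts the median log2 change of all tested probe sets in Ca-free medium against control at -0.18. Quantile normalization, which gives all arrays the same distribution, gave 3 members higher and 8 lower of 62, beside 8.99% and 11.5% of all genes. Scaling every array to the same median gave 30 higher and 1 lower, beside 42.4% and 5.16% of all genes. Scaling to the bacterial transcripts spiked in as hybridization controls gave 0 higher and 42 lower, beside 0.642% and 66.7%. Kdm4c was the only member called in the same direction under all 4 scalings, beside 0.647% of all genes called higher and 4.37% called lower under all of them. Crebbp, Kat2b and Setd5 were called higher under 3 of the scalings (trimmed mean, quantile, median), as were 913 of all 13599 genes tested. The directions given for other members below therefore hold relative to the trimmed mean of the array's signal, and not always relative to its median.

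**Figure D2:**
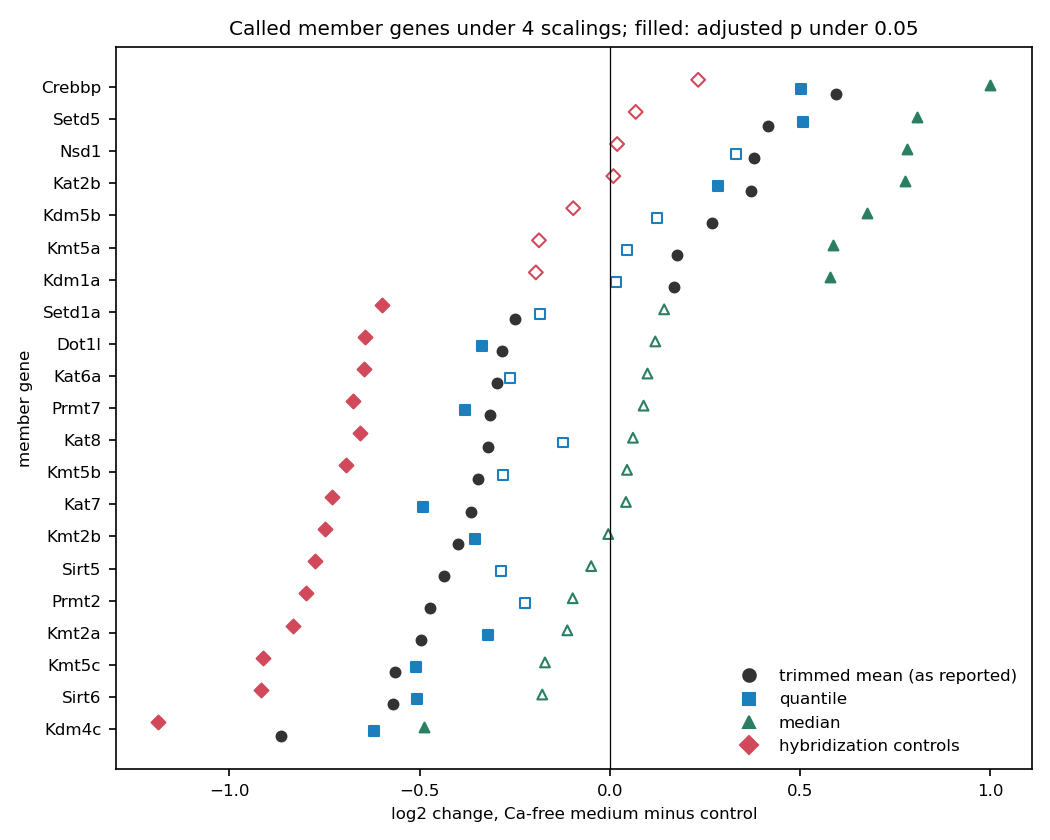
Log2 change from control to Ca-free medium of the 21 members called, under 4 scalings of the same arrays (symbols, filled where the adjusted p is under 0.05). Kdm4c, at the bottom, lies left of 0 and is filled under all 4, while most other lower members reach or cross 0 under median scaling.

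Kdm4c, a demethylase that removes trimethyl marks from lysines 9 and 36 of histone H3, had the largest fall among the members counted by their brightest probe set. Its signal was 508, 539, 406 and 413 in controls 1 to 4, 388, 348, 524 and 327 in the arrays after 20 pulses and 257, 237, 261 and 209 in Ca-free medium. All Ca-free values lay below all values of the other groups, and controls 1 and 2 lay above controls 3 and 4. It fell in Ca-free medium (log2 change -0.86 ± 0.14 SE, adjusted p = 0.000678), and the change was -0.62 under quantile, -0.49 under median and -1.19 under hybridization control scaling. The fall was -1.03 against controls 1 and 2 alone and -0.70 against controls 3 and 4 alone, and passed the test both times. With only Ca-free arrays 1 and 4 it was -0.91, and with only 2 and 3 it was -0.82. After 20 pulses the change of -0.23 ± 0.14 SE did not pass (adjusted p = 0.452).

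Among the demethylases of lysine 4 of histone H3, Kdm5b and Kdm1a were called higher under the trimmed mean scaling. Kdm5b, which removes di- and trimethyl marks, gave 2806, 2814, 2568 and 2641 in controls, 2401, 2842, 2463 and 2921 after 20 pulses and 3740, 2908, 2903 and 3587 in Ca-free medium. Every Ca-free value was above every control, but Ca-free arrays 1 and 4 carried most of the rise (log2 change 0.27 ± 0.09 SE, adjusted p = 0.0319). With only arrays 2 and 3 of Ca-free medium the change was 0.10 and did not pass. The call was also lost without control 3, control 4, Ca-free 1 or Ca-free 4 (log2 change 0.20 to 0.26, adjusted p 0.0639 to 0.101), and the change was -0.10 under hybridization control scaling. Kdm5b did not pass either under quantile normalization, in a fit with no intensity trend, with its tested probe sets averaged or with either pair of controls alone. The second brightest probe set of Kdm5b went from 642, 613, 530.4 and 517 in controls to 900.3, 709, 743 and 855 in the Ca-free group (log2 change 0.46 ± 0.10 SE, adjusted p = 0.00325). Kdm1a, which removes mono- and dimethyl marks at the same lysine as part of CoREST complexes, stood at 3432, 3512, 3272 and 3509 in controls, 3627, 3484, 3508 and 3799 after 20 pulses and 4126, 3558, 3751 and 4039 in Ca-free medium. The groups did not overlap and it was called higher (log2 change 0.17 ± 0.06 SE, adjusted p = 0.0351). Its call was lost without control 1, control 3, Ca-free 1 or Ca-free 4 (log2 change 0.14 to 0.17, adjusted p 0.0651 to 0.104), and the change was -0.19 under hybridization control scaling. Kdm1a did not pass either under quantile normalization, in a fit with no intensity trend or with its tested probe sets averaged. The same held for either pair of controls alone, Ca-free arrays 2 and 3 alone and a fit of only the 8 arrays compared. Kdm5d, the copy of this family on the Y chromosome, had low signals of 144, 186, 116 and 109.9 in controls, 171, 221, 204 and 233 after 20 pulses and 138, 195, 206 and 102 in Ca-free medium. Its values overlapped between controls and Ca-free medium, and neither treatment passed against control (adjusted p = 0.554 in Ca-free medium and 0.219 after 20 pulses). The share of male embryos per array is not given in the labels, and its part in the Kdm5d signal was not tested.

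Kdm6a and Kdm6b remove methyl groups from lysine 27 of histone H3, the mark placed by Polycomb complexes. Kdm6a read 1614, 1472, 1174 and 1212 in controls, 1256, 1301, 1435 and 1289 after 20 pulses and 1268, 1653, 1916 and 1152 in Ca-free medium. Ca-free arrays 2 and 3 lay above every other array and arrays 1 and 4 within or below the control range, so the group did not pass (log2 change 0.11 ± 0.14 SE, adjusted p = 0.544). With arrays 2 and 3 alone the change was 0.38 and passed (adjusted p = 0.0347), and with 1 and 4 alone it was -0.16 and did not. Kdm6b was 719, 916, 885 and 866 in controls, 1078, 1099, 1002 and 1189 after 20 pulses and 978, 909.9, 998 and 1120 in Ca-free medium. All arrays after 20 pulses exceeded all controls by this probe set, yet neither treatment reached the threshold (adjusted p = 0.0704 after 20 pulses and 0.0553 in Ca-free medium). Kdm2a, which demethylates lysine 36 of histone H3, gave 428, 466, 340.2 and 418 in controls, 464, 552, 406 and 409.7 after 20 pulses and 314, 384, 381 and 309 in Ca-free medium. It was lower in Ca-free medium than after 20 pulses, without overlap (log2 change -0.37 ± 0.12 SE, adjusted p = 0.0353), but not lower than in controls (adjusted p = 0.148). The former call was lost without pulses 1, pulses 2, Ca-free 1 or Ca-free 4 (log2 change -0.36 to -0.28, adjusted p 0.0762 to 0.11). The other demethylases, Kdm1b, Kdm2b, Kdm3a, Kdm3b, Kdm4a, Kdm4d, Kdm5a, Kdm5c, Kdm7a and Kdm8, did not pass against control in either treatment by their brightest probe sets. Kdm4d was at the edge of the filter with a mean signal of 103.

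Among the sirtuins, Sirt6 and Sirt5 were lower in Ca-free medium. Sirt6, a nuclear enzyme that deacetylates histone H3, was at 807, 734, 896 and 814 in controls, 648, 725, 604 and 711 after 20 pulses and 454, 625, 539.9 and 536 in Ca-free medium. Both treated groups lay below every control, and the Ca-free fall passed (log2 change -0.57 ± 0.10 SE, adjusted p = 0.00116), while the change after 20 pulses of -0.26 ± 0.10 SE did not (adjusted p = 0.22). Sirt5, a mostly mitochondrial enzyme that removes succinyl and malonyl groups, was at 552, 570.2, 568 and 484, 558, 619, 423 and 436 and 344, 424, 439.6 and 371 in the same order of groups. It was lower than every control in all Ca-free arrays (log2 change -0.43 ± 0.12 SE, adjusted p = 0.0132). With only controls 3 and 4 its fall of -0.39 did not pass, nor did the fall of -0.31 with only Ca-free arrays 2 and 3. Sirt1, the best studied nuclear sirtuin, gave 2075, 2042, 1809 and 1652 in controls, 1974, 1977, 2088 and 2102 after 20 pulses and 1784, 2744, 2896 and 1670 in Ca-free medium. Ca-free arrays 2 and 3 were above every other array and arrays 1 and 4 were below most of them, so the group difference did not pass (log2 change 0.22 ± 0.15 SE, adjusted p = 0.236). With arrays 2 and 3 alone the change was 0.57 and passed, and with 1 and 4 alone it was -0.13 and did not. Under median scaling the changes of Sirt6 and Sirt5 were -0.18 and -0.05 and did not pass. Sirt5 did not pass under quantile normalization either. Sirt3, Sirt4 and Sirt7 had Ca-free changes of -0.31 ± 0.18 SE, -0.03 ± 0.22 SE and -0.14 ± 0.10 SE, none past the threshold.

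The methyltransferases of lysine 4 of histone H3 differed among themselves. Kmt2a and Kmt2b, the paralogous founding members of the MLL family, were lower in Ca-free medium. Kmt2a was 541, 528, 536 and 476 in controls, 566, 432, 484 and 487 after 20 pulses and 373, 364, 385 and 318 in Ca-free medium. Kmt2b was 806, 783, 838 and 801 in controls, 804, 805, 779 and 766 after 20 pulses and 585, 633, 640.5 and 561 in Ca-free medium. For both genes every Ca-free array lay below every array of the other groups, which overlapped each other. Kmt2a fell against control (log2 change -0.50 ± 0.10 SE, adjusted p = 0.00197) and against 20 pulses (-0.42 ± 0.10 SE, adjusted p = 0.00731). Kmt2b likewise fell against control (log2 change -0.40 ± 0.07 SE, adjusted p = 0.00142) and against 20 pulses (-0.37 ± 0.07 SE, adjusted p = 0.00359). Under median scaling the changes against control were -0.11 and -0.00 and did not pass.

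Setd1a, which deposits much of the trimethyl mark at promoters, was 647, 712, 677 and 749 in controls, 776, 691, 755 and 666 after 20 pulses and 519, 616, 613 and 574 in Ca-free medium. The Ca-free arrays were below every array of the other groups (log2 change -0.25 ± 0.09 SE, adjusted p = 0.0345 against control and -0.30 ± 0.09 SE, adjusted p = 0.0188 against 20 pulses). The call against control was lost without control 2, control 3, control 4, Ca-free 1 or Ca-free 4 (log2 change -0.26 to -0.20, adjusted p 0.052 to 0.0995), and also with the replicate number as a block. The call against 20 pulses was lost without pulses 1, pulses 3 or Ca-free 1 (log2 change -0.28 to -0.25, adjusted p 0.0502 to 0.0568). Under median scaling the change against control was 0.14, and under quantile normalization both calls were lost. Kmt2d, which marks enhancers, had signals of 465, 501, 368 and 385 in controls, 568, 582, 559 and 509.8 after 20 pulses and 538, 403, 473 and 543 in Ca-free medium. All arrays after 20 pulses lay above all controls, but the change did not pass (log2 change 0.35 ± 0.12 SE, adjusted p = 0.143). It was 0.19 against controls 1 and 2 alone and 0.52 against controls 3 and 4 alone, where it passed. Kmt2c, Kmt2e and Setd1b did not pass in any comparison by their brightest probe sets.

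Kmt5a, Kmt5b and Kmt5c act on lysine 20 of histone H4. Kmt5a, which adds the first methyl group, was at 2695, 2801, 2901 and 3031 in controls, 2831, 3053, 2740 and 2872 after 20 pulses and 3232, 3228, 3394 and 3082 in Ca-free medium. Kmt5c, which adds the further ones mainly in heterochromatin, was at 870.4, 831, 845 and 817 in controls, 844, 728, 741 and 590 after 20 pulses and 543, 524, 609.8 and 559 in Ca-free medium. Kmt5b, its paralog, was at 709, 745, 694 and 698 in controls, 630.3, 678, 638 and 618 after 20 pulses and 490, 650.4, 659 and 440.5 in Ca-free medium. In Ca-free medium Kmt5a was above, and Kmt5b and Kmt5c below, every control, although Kmt5b in Ca-free arrays 2 and 3 came close to the lowest control. Kmt5c fell (log2 change -0.56 ± 0.10 SE, adjusted p = 0.001), as did Kmt5b (-0.35 ± 0.11 SE, adjusted p = 0.0257), and Kmt5a was higher (0.18 ± 0.06 SE, adjusted p = 0.0284). The Kmt5b call was lost without control 2, Ca-free 1 or Ca-free 4 (log2 change -0.33 to -0.25, adjusted p 0.0608 to 0.0812). The Kmt5a call was lost without control 1, control 2, Ca-free 1, Ca-free 2 or Ca-free 3 (log2 change 0.15 to 0.18, adjusted p 0.051 to 0.084), and its change was -0.19 under hybridization control scaling, while Kmt5b was at 0.04 and Kmt5c at -0.17 under median scaling. Neither Kmt5a nor Kmt5b passed against control under quantile normalization or with its tested probe sets averaged. Kmt5b was also lost with either pair of controls alone and with Ca-free arrays 2 and 3 alone. Kmt5a was also lost with no intensity trend, with controls 3 and 4 alone and with Ca-free arrays 1 and 4 alone.

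Of the methyltransferases for lysine 9 of histone H3, none passed in Ca-free medium against control by the brightest probe set. Setdb1, which silences retroelements, was 1023, 1033, 972 and 894 in controls, 1035, 1132, 1026 and 1167 after 20 pulses and 748, 1008, 1005 and 791 in Ca-free medium. It was lower in Ca-free medium than after 20 pulses without overlap (log2 change -0.30 ± 0.10 SE, adjusted p = 0.0378), with Ca-free arrays 1 and 4 well below arrays 2 and 3. That call was lost without pulses 1, pulses 2, pulses 4, Ca-free 1 or Ca-free 4 (log2 change -0.32 to -0.22, adjusted p 0.0559 to 0.112). Against control it passed with Ca-free arrays 1 and 4 alone (-0.34, adjusted p = 0.0157), while with arrays 2 and 3 alone the change was 0.04. Ehmt2, the euchromatic dimethyltransferase also called G9a, was 512, 612, 592 and 665 in controls, 622, 486, 642 and 625 after 20 pulses and 551, 592, 623 and 528 in Ca-free medium. Suv39h2, which acts on pericentric heterochromatin, was 150.3, 211, 209.6 and 214 in controls, 139, 247, 219 and 315 after 20 pulses and 195, 246, 208 and 218 in Ca-free medium. Both overlapped between all groups, and each had a single array apart from the rest of its group (pulses 2 for Ehmt2 and control 1 for Suv39h2). Ehmt1 and Setdb2 did not pass either, with Ca-free changes of 0.19 ± 0.08 SE and -0.08 ± 0.09 SE.

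Dot1l, which methylates lysine 79 of histone H3 in transcribed genes, was 1619, 1460, 1566 and 1522 in controls, 1368, 1250, 1549 and 1418 after 20 pulses and 1253, 1423, 1245 and 1134 in Ca-free medium. All Ca-free values lay below all controls (log2 change -0.28 ± 0.08 SE, adjusted p = 0.0156), and the change kept its size but did not pass with controls 1 and 2 alone (-0.28) or 3 and 4 alone (-0.29). With only Ca-free arrays 2 and 3 it was -0.21 and did not pass, and under median scaling it was 0.12. Dot1l did not pass with its tested probe sets averaged either. Nsd1, which dimethylates lysine 36 of the same histone, was 997, 1062, 1083 and 1094 in controls, 1047, 1168, 1224 and 1656 after 20 pulses and 1309, 1199, 1751 and 1336 in Ca-free medium. It was higher in Ca-free medium than every control (log2 change 0.38 ± 0.13 SE, adjusted p = 0.0319), a call lost without control 1, control 2, control 3 or Ca-free 3 (log2 change 0.27 to 0.39, adjusted p 0.0509 to 0.0982) and under quantile scaling (0.33). Nsd1 did not pass either under hybridization control scaling, in a fit with no intensity trend or with its tested probe sets averaged. The same held for either pair of controls or of Ca-free arrays alone. Setd5, whose own methyltransferase activity is disputed, overlapped between groups (440 to 571 in controls and 479.7 to 836 in Ca-free medium) and passed narrowly (log2 change 0.42 ± 0.16 SE, adjusted p = 0.0487). The Setd5 call was lost without control 2, control 3, control 4, Ca-free 1, Ca-free 3 or Ca-free 4 (log2 change 0.31 to 0.46, adjusted p 0.0521 to 0.142), and its other tested probe set had a change of -0.43 ± 0.19 SE. With all tested probe sets of Setd5 averaged the change was -0.0075. Setd2, Setd3, Setd4, Setd6 and Setd7 did not pass by their brightest probe sets.

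Of the arginine methyltransferases, Prmt7 and Prmt2 were lower in Ca-free medium than in the 4 controls and 0 were higher. Prmt7, which adds a single methyl group, gave 1688, 1407, 1802 and 1827 in controls, 1555, 1940, 1532 and 1771 after 20 pulses and 1179, 1489, 1471 and 1239 in Ca-free medium. It was lower in Ca-free medium than in controls (log2 change -0.32 ± 0.11 SE, adjusted p = 0.0295), with control 2 below Ca-free arrays 2 and 3, and lower than after 20 pulses with no overlap (-0.33 ± 0.11 SE, adjusted p = 0.0288). The calls were lost without control 1, control 3, control 4, Ca-free 1 or Ca-free 4 (log2 change -0.31 to -0.26, adjusted p 0.0592 to 0.0863) in the former comparison and without pulses 2, pulses 4, Ca-free 1 or Ca-free 4 (log2 change -0.31 to -0.27, adjusted p 0.0601 to 0.0885) in the latter, and the changes were 0.09 and 0.04 under median scaling. Prmt5, the main symmetric arginine methyltransferase, was 1719, 1803, 2177 and 2186 in controls, 1808, 1806, 1744 and 1890 after 20 pulses and 2060, 2315, 2331 and 2128 in Ca-free medium. It was the member with the largest rise against 20 pulses among those without overlap (log2 change 0.28 ± 0.08 SE, adjusted p = 0.0207), a call lost without pulses 3 or Ca-free 2 (log2 change 0.26 to 0.26, adjusted p 0.0519 to 0.0525), and it did not pass against control, where arrays 3 and 4 lay above arrays 1 and 2. Against controls 1 and 2 alone the change was 0.32 and passed (adjusted p = 0.0111), and against controls 3 and 4 alone it was 0.0154. Under hybridization control scaling the change against 20 pulses was -0.23. Prmt1, the main asymmetric enzyme, was 3306, 3576, 4113 and 3945 in controls, 3522, 3886, 3116 and 3716 after 20 pulses and 3385, 3976, 4102 and 3550 in Ca-free medium, with overlap throughout and a Ca-free change of 0.01 ± 0.09 SE. Prmt2, a coactivator of nuclear receptors, spanned 304 to 440 in controls and 223 to 347 in Ca-free medium and was called lower (log2 change -0.47 ± 0.14 SE, adjusted p = 0.0156). Under median scaling it was at -0.10 and did not pass. The Prmt2 call was also lost under quantile normalization, with its tested probe sets averaged, with controls 1 and 2 alone and with Ca-free arrays 1 and 4 alone. Prmt3, Prmt6 and Prmt9 did not pass in any comparison by their brightest probe sets.

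Among the acetyltransferases, Crebbp and Kat2b were higher in Ca-free medium than in controls, and Kat7, Kat6a and Kat8 were lower. Crebbp, a coactivator that binds the phosphorylated form of the transcription factor Creb, was 1774, 1825, 1279 and 1189 in controls, 1748, 2155, 1984 and 2384 after 20 pulses and 2096, 2246, 2542 and 2200 in Ca-free medium. Every Ca-free array was above every control, and controls 3 and 4 lay well below controls 1 and 2. It rose (log2 change 0.59 ± 0.13 SE, adjusted p = 0.00359) by 0.33 against controls 1 and 2 alone and by 0.86 against controls 3 and 4 alone, with both past the threshold, and by 0.23 under hybridization control scaling, which did not pass. Its other 3 tested probe sets had Ca-free changes of 0.22 ± 0.09 SE, 0.16 ± 0.10 SE and 0.22 ± 0.12 SE and did not pass. Ep300, its close paralog, was 1364, 1306, 1179 and 1250 in controls, 1262, 1552, 1477 and 1544 after 20 pulses and 1286, 1604, 1624 and 1264 in Ca-free medium. Its Ca-free change of 0.17 ± 0.10 SE did not pass, with arrays 2 and 3 above all controls and arrays 1 and 4 among them. With arrays 2 and 3 alone it was 0.34 and passed (adjusted p = 0.0224), and with 1 and 4 alone it was 0.0022.

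Kat2b, also called PCAF, was 1549, 1490, 1376 and 1521 in controls, 1813, 1660, 1834 and 1722 after 20 pulses and 1923, 1863, 2045 and 1875 in Ca-free medium. The groups did not overlap, and the lowest were the controls. It rose in Ca-free medium (log2 change 0.37 ± 0.07 SE, adjusted p = 0.00112), by 0.28 under quantile scaling, while under hybridization control scaling the change was 0.01. Its other tested probe set, a dimmer one, went the other way, from 237, 195, 182 and 207 in controls to 116, 174, 122 and 119 in the Ca-free group (log2 change -0.54 ± 0.16 SE, adjusted p = 0.0172). With the 2 averaged the Kat2b change was -0.083. Kat2a, its paralog, was 2579, 2500, 3001 and 3464 in controls, 2517, 2841, 2557 and 2811 after 20 pulses and 2834, 2755, 2644 and 2935 in Ca-free medium by its brightest probe set, with overlap in every comparison (log2 change -0.04 ± 0.09 SE, adjusted p = 0.771 in Ca-free medium). Kat7, the catalytic subunit of HBO1 complexes that acetylate histones H3 and H4, was 4077, 3472, 3886 and 3275 in controls, 3074, 3365, 3027 and 2896 after 20 pulses and 2722, 3061, 2905 and 2668 in Ca-free medium. It fell in Ca-free medium without overlap with controls (log2 change -0.37 ± 0.08 SE, adjusted p = 0.0026), and the change was 0.04 under median scaling. Kat6a, the MOZ acetyltransferase, was 747, 859.7, 768 and 885 in controls, 785, 655, 777 and 717 after 20 pulses and 542, 650.2, 742 and 707 in Ca-free medium. All Ca-free values were below all controls, narrowly so for Ca-free array 3 (log2 change -0.30 ± 0.10 SE, adjusted p = 0.0345), and the call was lost without control 2, control 4, Ca-free 1 or Ca-free 2 (log2 change -0.29 to -0.21, adjusted p 0.0626 to 0.109). Kat8, which acetylates lysine 16 of histone H4, spanned 386 to 524 in controls and 305 to 391 in Ca-free medium (log2 change -0.32 ± 0.11 SE, adjusted p = 0.0334), a call lost without control 1, control 2, Ca-free 2 or Ca-free 4 (log2 change -0.32 to -0.24, adjusted p 0.0636 to 0.109). Under median scaling Kat6a was at 0.10 and Kat8 at 0.06, and neither passed under quantile normalization. Kat5 and Kat6b did not pass.

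**Figure D3:**
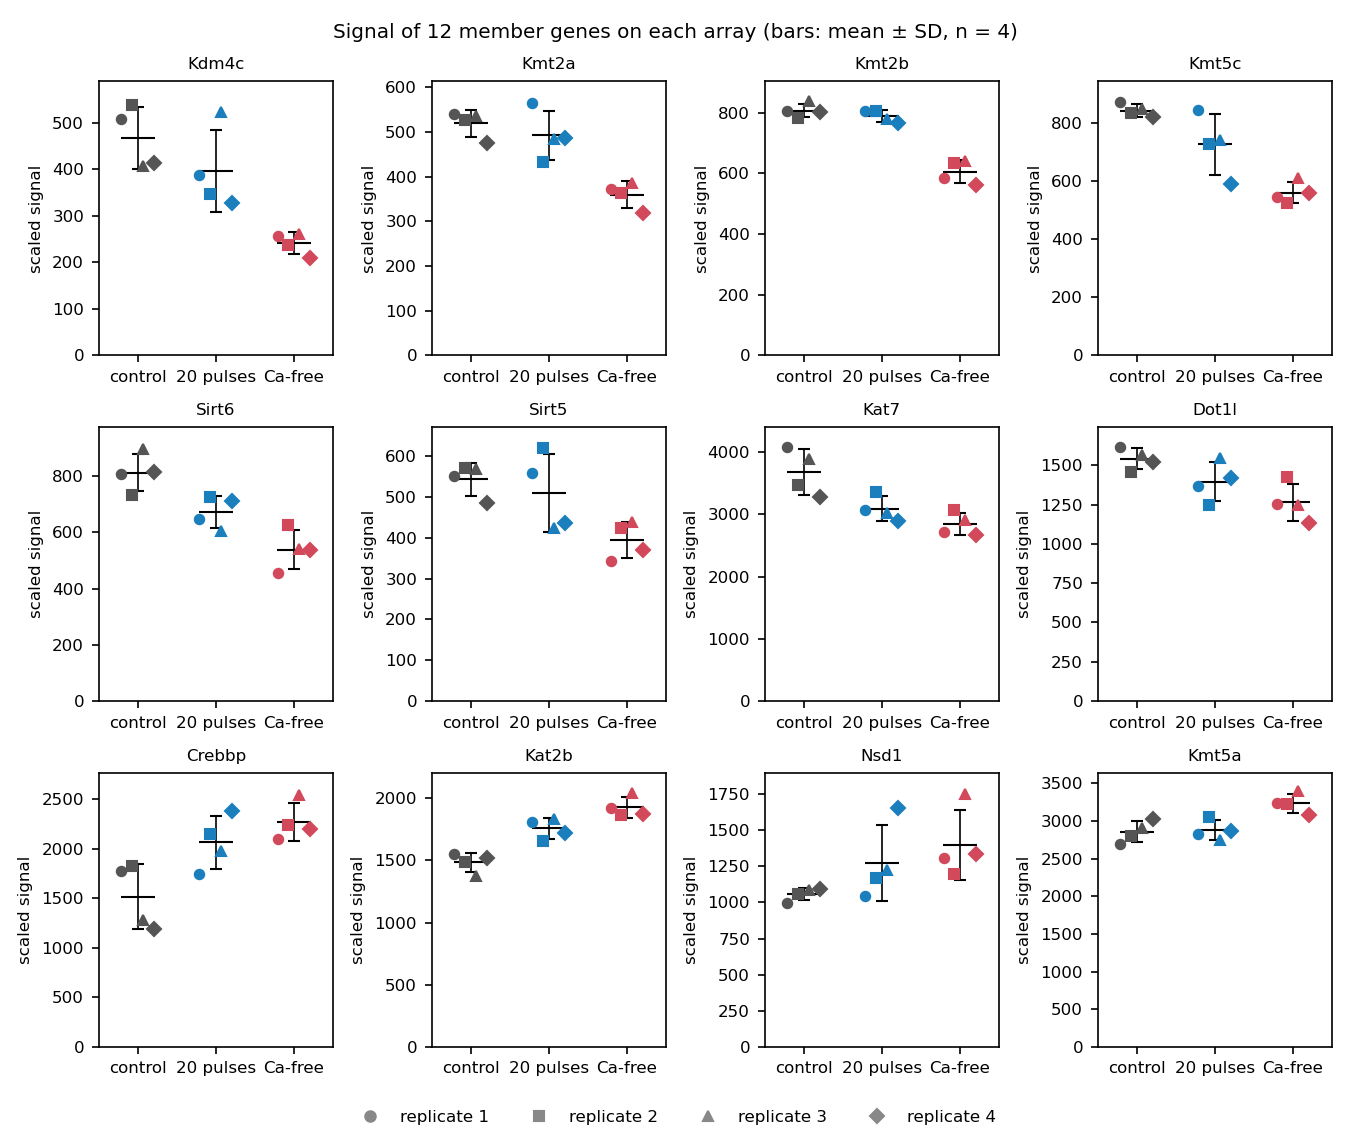
Scaled signal of 12 members on each array, by group, with the mean ± SD of the 4 arrays as bars and a symbol for each replicate number. In Kdm4c, Kmt2a, Kmt2b, Kmt5c, Sirt6, Sirt5, Kat7 and Dot1l all Ca-free points lie below all controls, and in Crebbp, Kat2b, Nsd1 and Kmt5a all lie above.

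Kdm4c, Kmt5c, Kmt2a, Kmt2b, Sirt6 and Kat7 were called lower, and Crebbp and Kat2b higher, in Ca-free medium in every fit that left out 1 of the 8 arrays and with either pair of controls or of Ca-free arrays alone. The other 13 of the 21 calls were lost with at least 1 of these pairs alone, and Ep300, Kdm6a, Prmt5, Setdb1 and Sirt1 were called with 1 of them. Promoter sequences are shown for Kdm4c, the member called under all 4 scalings, and for Kat2b and Crebbp, which had the smallest adjusted p among members called higher. The motifs searched include the cAMP response element, bound by Creb, a factor that Ca2+ and cAMP signals activate. The sequences are the 250 bases before a transcript start listed in RefSeq on mouse build GRCm38.p6, read along the gene's strand. Kdm4c and Kat2b have a pair of listed starts each, and the window holding a motif is printed. Capitals mark the half-site of the cAMP response element (TGACG), the GC box (GGGCGG) and the CCAAT box (CCAAT), or their reverse complements.
Kdm4c, chr4:74251629-74251878, plus strand: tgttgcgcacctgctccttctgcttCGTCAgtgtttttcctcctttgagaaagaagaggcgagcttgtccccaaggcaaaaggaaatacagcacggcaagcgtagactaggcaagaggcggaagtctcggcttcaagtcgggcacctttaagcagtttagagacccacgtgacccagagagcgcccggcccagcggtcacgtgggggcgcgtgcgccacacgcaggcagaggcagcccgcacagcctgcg
Crebbp, chr16:4213405-4213654, minus strand: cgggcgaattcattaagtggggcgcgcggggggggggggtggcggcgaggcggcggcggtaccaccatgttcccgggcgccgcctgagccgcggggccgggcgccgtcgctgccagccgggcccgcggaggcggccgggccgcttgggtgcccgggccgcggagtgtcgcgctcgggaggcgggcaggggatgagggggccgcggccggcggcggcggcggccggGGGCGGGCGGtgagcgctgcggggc
Kat2b, chr17:53566721-53566970, plus strand: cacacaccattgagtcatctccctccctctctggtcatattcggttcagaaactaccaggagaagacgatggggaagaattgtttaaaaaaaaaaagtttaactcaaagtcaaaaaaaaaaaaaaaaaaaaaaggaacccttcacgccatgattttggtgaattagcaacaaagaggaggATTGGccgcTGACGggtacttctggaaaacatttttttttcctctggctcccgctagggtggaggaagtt
The Kdm4c window holds 1 half-site, the Crebbp window 2 overlapping GC boxes, and the Kat2b window 1 half-site and 1 CCAAT box. None of them holds the full element TGACGTCA, which overlaps the half-site where present. On either strand the full element was found in 2.74% of 73 windows of the 55 members with a listed start (in Prmt9 and Suv39h2), beside 1.55% of all 32851 windows. The half-site was in 32.9% of member windows and 17.8% of all, the GC box in 64.4% and 32.7%, and the CCAAT box in 39.7% and 33.8%. These matches are letters in a window and do not show that a factor binds there.

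After 20 pulses no member passed the test in either direction (limma, Benjamini-Hochberg adjusted p under 0.05), beside 0.75% of all genes called higher and 0.331% called lower. At an unadjusted p under 0.05, 5 members were higher and 3 lower, beside 6.82% and 8.49% of all genes. Without overlap between the groups, 3 members lay above and 2 below the controls, beside 5.1% and 5.6% of all genes. Over all member probe sets 0 were called higher and 0 lower, beside 1.1% and 0.374% of all probe sets, and 0 members were called in the same direction under all 4 scalings, beside 0.596% and 0.0515% of all genes. The members' median change was -0.04, the same as over all genes. Hybridization control scaling called 3 members higher and a minimum signal of 300 called 1, while the fit with only controls 3 and 4 called 2. The shares of all genes called under these settings are not given, so these counts cannot be set against the background. Kdm6b had the lowest p among members counted by their brightest probe set (log2 change 0.36 ± 0.09 SE, adjusted p = 0.0704), followed by Kat2b (0.24 ± 0.07 SE, adjusted p = 0.0865) and Crebbp (0.46 ± 0.13 SE, adjusted p = 0.1). For Kdm6b and Kat2b all arrays after 20 pulses lay above all controls, and for Crebbp 1 array of the 20 pulses group lay between the control values. Against controls 3 and 4 alone the Crebbp change was 0.72 and passed, and against controls 1 and 2 alone it was 0.19.

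Between the treated groups, 3 members were higher and 10 lower in Ca-free medium than after 20 pulses, beside 11.2% and 21% of all genes. Over all member probe sets 4 were higher and 26 lower, beside 9.22% and 23.4% of all probe sets. Of these 30 calls, 3 (probe sets of Kdm5c, Kdm7a and Setd6) had a mean below 100 in Ca-free medium or after 20 pulses. Those probe sets reached the filter only through the other arrays. Without overlap between the groups, 3 members lay above and 7 below, beside 11.3% and 19.5% of all genes. This comparison shares its Ca-free arrays with the comparison against control. Members called lower in it without overlap were Kmt2b, Kdm4c (-0.63 ± 0.14 SE, adjusted p = 0.00532), Kmt2a, Setd1a, Prmt7, Kdm2a and Setdb1, and those called higher without overlap were Prmt5 and Kmt5a (0.17 ± 0.06 SE, adjusted p = 0.0419). Kdm5b (0.30 ± 0.09 SE, adjusted p = 0.024) was higher with overlap, and Kmt5c (-0.35 ± 0.10 SE, adjusted p = 0.016), Sirt6 (-0.31 ± 0.10 SE, adjusted p = 0.0337) and Prmt2 (-0.41 ± 0.14 SE, adjusted p = 0.0342) were lower with overlap. The Kmt5a call was lost without pulses 1, pulses 3, pulses 4, Ca-free 1, Ca-free 2 or Ca-free 3 (log2 change 0.15 to 0.17, adjusted p 0.0672 to 0.109). The Kdm5b call was lost without pulses 1, pulses 3, Ca-free 1 or Ca-free 4 (log2 change 0.23 to 0.26, adjusted p 0.0666 to 0.0777). The Kmt5c call was lost without pulses 1 (log2 change -0.28, adjusted p = 0.0544). The Sirt6 call was lost without pulses 1, pulses 2, pulses 4, Ca-free 1, Ca-free 3 or Ca-free 4 (log2 change -0.32 to -0.23, adjusted p 0.054 to 0.1). The Prmt2 call was lost without pulses 1, pulses 2, pulses 3, Ca-free 2, Ca-free 3 or Ca-free 4 (log2 change -0.41 to -0.33, adjusted p 0.0583 to 0.0956). No member was called in this comparison under all 4 scalings, beside 0.0956% of all genes higher and 1.64% lower: quantile normalization gave 0 higher and 2 lower (5.35% and 5.18% of all genes), median scaling 26 and 0 (37.9% and 2.4%), and hybridization control scaling 0 and 58 (0.102% and 84.6%).

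Writers were set against erasers by the difference of their median log2 changes, over 39 writers (methyl- and acetyltransferases) and 23 erasers (demethylases and sirtuins). In Ca-free medium against control 5 writers were higher (12.8%) and 11 lower (28.2%), with a median of -0.11. Of the erasers 2 were higher (8.7%) and 3 lower (13%), with a median of -0.01. Over all genes the shares were 12.3% and 28.8% and the median was -0.13, so the writers lay near the background. The writers minus erasers difference was -0.11. The SD of 0.03 between the 4 Ca-free arrays belongs to the values on each array given next and does not measure the precision of this difference. Taken against the control means on each array, the difference was -0.05, -0.09, 0.07 and 0.12 in controls 1 to 4, -0.03, -0.14, -0.12 and -0.05 after 20 pulses, and -0.06, -0.04, -0.09 and -0.02 in Ca-free medium. All Ca-free values lay within the range of the controls, so the groups were not separated. Against controls 1 and 2 alone the difference was -0.06 and against controls 3 and 4 alone -0.15. With only Ca-free arrays 1 and 4 it was 0.01. The demethylases carried the spread among controls, with medians of 0.07, 0.12, -0.12 and -0.13 in controls 1 to 4. After 20 pulses the difference was -0.03, and it was 0.13 against controls 1 and 2 alone and -0.16 against controls 3 and 4 alone. Between Ca-free medium and 20 pulses it was -0.01. Without members whose main known substrate is no histone the difference was -0.14 in Ca-free medium and -0.13 after 20 pulses, both against control.

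**Figure D4:**
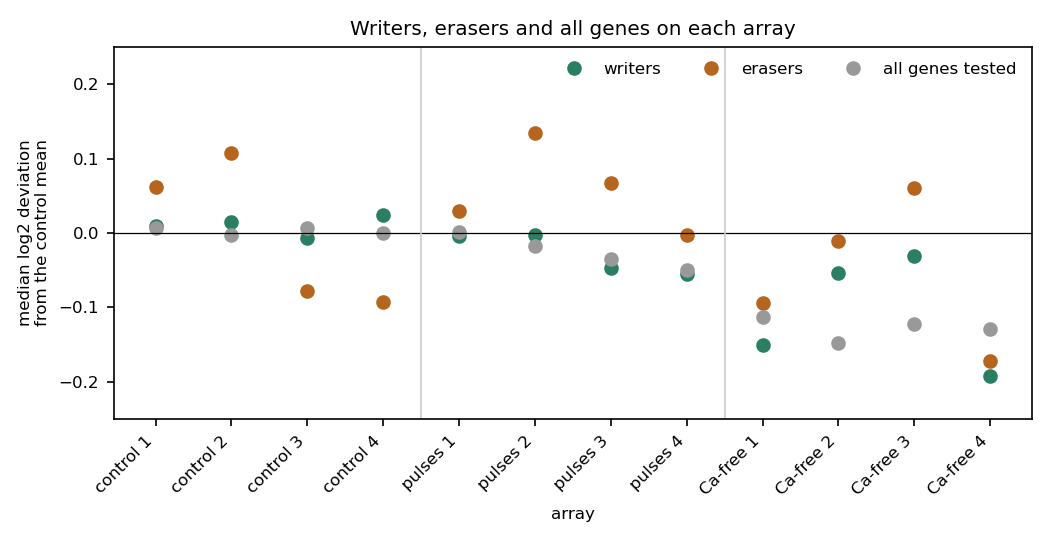
Median log2 deviation from the control mean of 39 writers, 23 erasers and all 13599 genes tested on each of the 12 arrays. Erasers lie above writers on controls 1 and 2 and below them on controls 3 and 4, and the Ca-free arrays show no wider gap than the controls.

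The pairs of arrays that stood apart did so in many members. Controls 1 and 2 did not overlap controls 3 and 4 in 32 of 62 members, beside 50.6% of all genes. Among the members with the widest such gaps were Kdm4d, at 192, 181, 39.3 and 90.5 in controls 1 to 4, and Kdm7a, at 355, 495, 250.4 and 203. Ca-free arrays 1 and 4 did not overlap arrays 2 and 3 in 39 members, beside 52.8% of all genes, and were the higher pair in 9 of the 39. Sirt1, Kdm6a, Kmt2c and Setd2 were lower in Ca-free arrays 1 and 4, and Setd5 and Kdm5b were higher in them. Setd2, which trimethylates lysine 36 of histone H3, was at 806, 1092, 1077 and 754 in Ca-free medium, so that arrays 1 and 4 lay below every control (902 to 1028) and arrays 2 and 3 above. These gaps within a group were as large as many of the differences between groups.

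Probe sets of the same gene often disagreed. Of 35 members with 2 or more tested probe sets, 15 had all of them change in the same direction in Ca-free medium against control. Over all 132 member probe sets 16 were higher and 29 lower, beside 10.6% and 29.7% of all probe sets. Kat2a, Kat2b, Kdm2a, Kdm6a, Kdm6b and Setd6 each had a probe set called higher and another called lower. The share of all genes whose probe sets disagree was not computed, so this disagreement cannot be called particular to the members. For Kat2a, the second brightest of its 3 tested probe sets went from 591, 619.5, 588 and 504 in controls to 400.5, 250.4, 239 and 263 in Ca-free medium (log2 change -0.95 ± 0.14 SE, adjusted p = 0.000507). Its dimmest tested probe set, with a name ending in _s_at, went from 135, 127, 135 and 107 to 237, 175, 144 and 214 (log2 change 0.49 ± 0.16 SE, adjusted p = 0.0242). In both probe sets the groups did not overlap, while the brightest Kat2a probe set showed overlap. For Setd6, which methylates the RelA subunit of NF-kappaB, the second brightest probe set, an _s_at probe set, went from 360.1, 445, 422 and 495 in controls to 628, 717, 710 and 684 in Ca-free medium (log2 change 0.64 ± 0.11 SE, adjusted p = 0.00107). The dimmest Setd6 probe set tested was at 154, 112, 88.1 and 107 in the 4 controls and 37.6, 83.0, 54.9 and 80.3 in the Ca-free group. All its Ca-free values were below 100, so it reached the filter only through the other groups and its change is not given. It was the only 1 of the 45 called member probe sets with a mean below 100 in controls or Ca-free medium. For Kdm6b, the second brightest probe set, an _x_at probe set, went from 229.6, 512, 456 and 357 in controls to 407, 684, 799.7 and 894 after 20 pulses and 769.7, 702, 662 and 724 in Ca-free medium (log2 change 0.88 ± 0.22 SE, adjusted p = 0.00756 in Ca-free medium). The dimmest Kdm6b probe set tested went from 241, 259.9, 198 and 209.9 in controls to 84.6, 187, 168 and 93.2 in the Ca-free group (log2 change -0.70 ± 0.20 SE, adjusted p = 0.0123). These Kdm6b probe sets moved in opposite directions, each without overlap with the controls. Probe set names ending in _s_at or _x_at mark probes that can also match other transcripts.

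A further 5 probe sets were called in the same direction under all 4 scalings, and were chosen for naming after their values were seen. Together with Kdm4c that is 3 higher and 3 lower of 132, beside 1.01% and 4.45% of all probe sets. They are the second brightest probe set of Kat2a and the fourth of Kdm5a, which were lower, and the second brightest of Setd6, Kdm6b and Nsd1, which were higher. Kdm5a, a demethylase of lysine 4 of histone H3, went from 360, 354, 306 and 247 in controls to 136, 179, 179 and 139.7 in the Ca-free group by that probe set (log2 change -0.87 ± 0.17 SE, adjusted p = 0.00162). Its brightest probe set had a change of -0.18 ± 0.13 SE and overlapped. The Nsd1 probe set was at 329.7, 284, 172 and 252 in controls, 374, 333, 454 and 508 after 20 pulses and 814, 382, 425 and 793 in Ca-free medium (log2 change 1.08 ± 0.23 SE, adjusted p = 0.00312). All Ca-free values were above all controls, and Ca-free arrays 1 and 4 lay well above arrays 2 and 3.

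**Figure D5:**
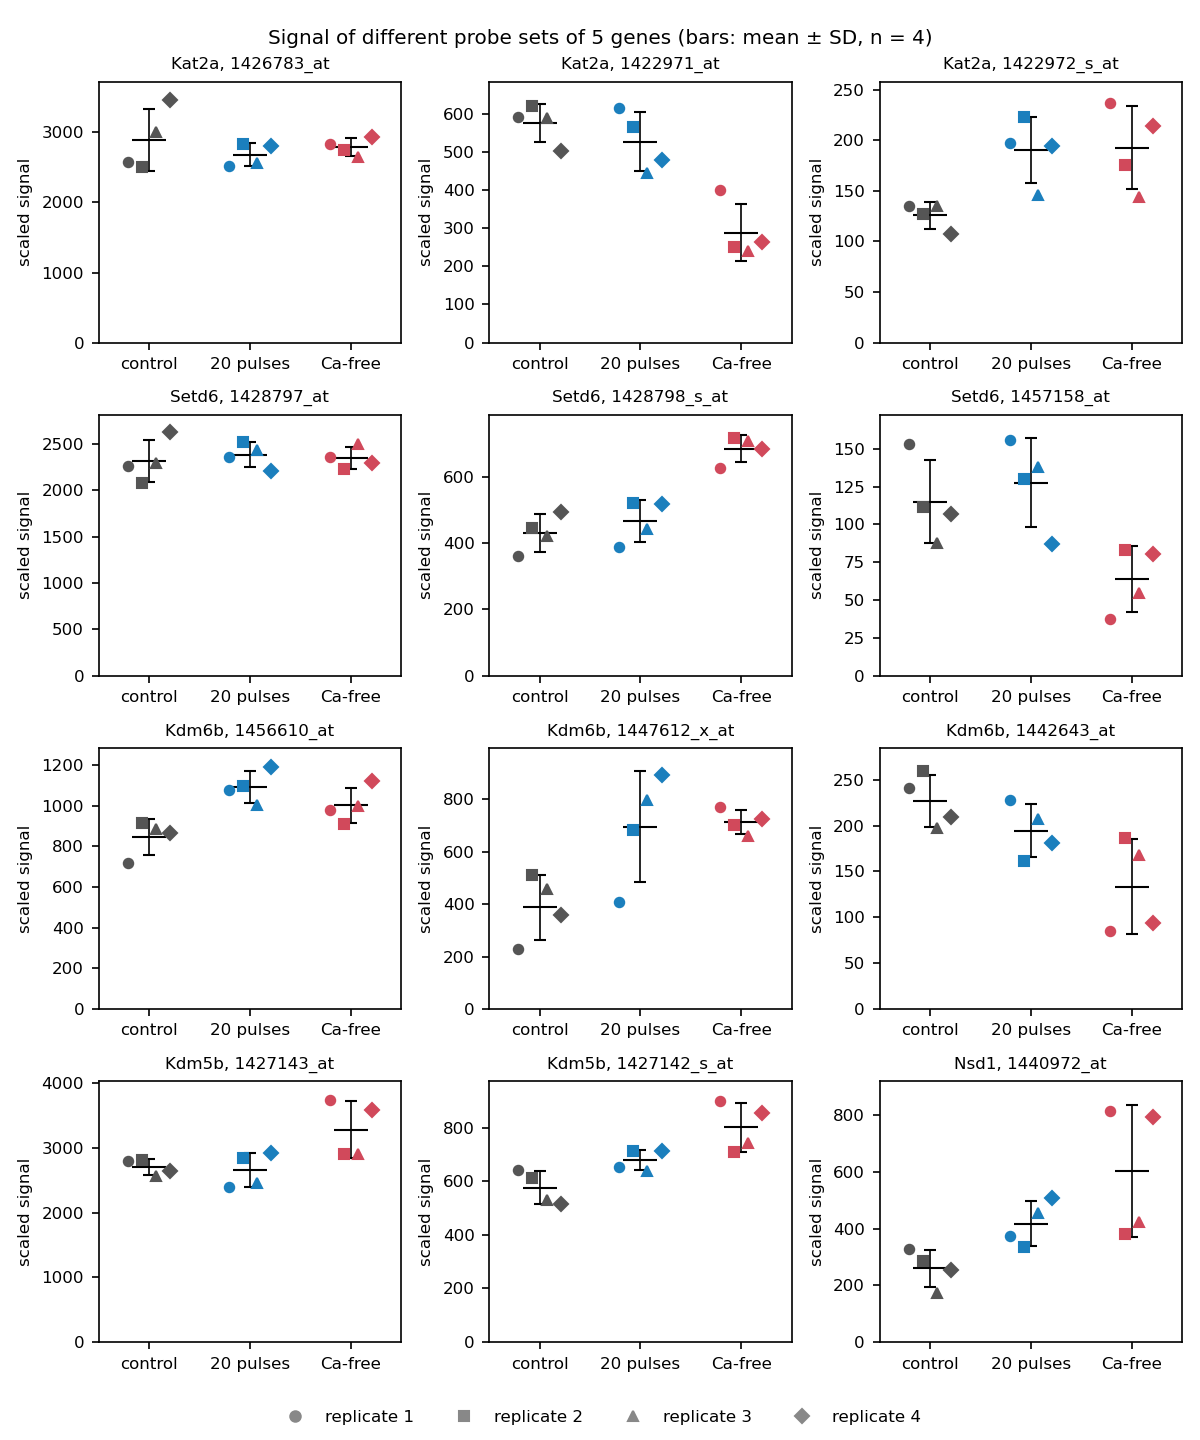
Scaled signal of 12 probe sets of Kat2a, Setd6, Kdm6b, Kdm5b and Nsd1 on each array, with the mean ± SD of the 4 arrays as bars. Kat2a, Setd6 and Kdm6b each have a probe set that is higher and another that is lower in Ca-free medium than in every control, and a brightest probe set (first panel of the row) with overlap. The lower Setd6 probe set has all its Ca-free values below 100 and reached the filter only through the other groups.

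The change also went with the signal level. Among the member probe sets with signals from 100 to 243 the median Ca-free change was -0.28, beside -0.38 over all such probe sets, and 2 of 44 were higher and 11 lower, beside 2.21% and 37.2% of all. Above 669 it was 0.02, beside 0.08 over all, and 10 of 44 were higher and 7 lower, beside 26% and 11.3%. The dim members had the lower changes, as did the dim probe sets over the whole array.

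Other enzymes of the same marks lay outside the rule, and their counts stand beside the 12.3% of all genes called higher and 28.8% called lower in Ca-free medium against control. Of 10 tested histone deacetylases of the HDAC family, which act without NAD, 1 was higher and 4 lower in Ca-free medium. Hdac11 was 931 ± 137 (SD, n = 4) in controls, 984 ± 219 after 20 pulses and 484 ± 132 in Ca-free medium (log2 change -0.92 ± 0.18 SE, adjusted p = 0.00162). Hdac5 was 404 ± 58.9 in controls and 276 ± 47.1 in Ca-free medium (log2 change -0.51 ± 0.14 SE, adjusted p = 0.00988). Hdac2, a subunit of several corepressor complexes, was the HDAC called higher, with a small change (log2 change 0.13 ± 0.05 SE, adjusted p = 0.0361). Of 15 other methyltransferases 1 was higher, Nsd3 (log2 change 0.53 ± 0.10 SE, adjusted p = 0.00176), and 3 lower, with Smyd1, known for its role in heart and muscle, at -0.86 ± 0.16 SE, adjusted p = 0.00119. Of 8 other demethylases 0 passed in Ca-free medium, and Jmjd1c, which belongs to the Kdm3 family, was higher after 20 pulses (1867 ± 111 in controls and 2488 ± 338 after 20 pulses, log2 change 0.40 ± 0.09 SE, adjusted p = 0.0432). Of 10 other acetyltransferases 2 were higher in Ca-free medium and 0 lower, namely Hat1, which acetylates newly made histone H4 (log2 change 0.22 ± 0.06 SE, adjusted p = 0.00928), and Gtf3c4 (0.37 ± 0.11 SE, adjusted p = 0.0185).

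The 49 tested partner subunits of these enzyme complexes gave 8 higher and 9 lower in Ca-free medium, again beside 12.3% and 28.8% of all genes, with a median change of 0.01 against -0.13 over all genes. Rcor2 and Phf21a, which work with Kdm1a in CoREST complexes, had the smallest p of these partners against control and were lower. Rcor3, another listed partner, did not pass (log2 change 0.03 ± 0.12 SE, adjusted p = 0.867). Rcor2 was 769.5 ± 74.3 in controls and 492 ± 37.8 in Ca-free medium (log2 change -0.61 ± 0.12 SE, adjusted p = 0.00208), and Phf21a was 318 ± 77.8 and 174 ± 16.1 (-0.74 ± 0.15 SE, adjusted p = 0.00186). Jade1 and Jade3, partners of Kat7, moved in opposite directions (0.27 ± 0.06 SE, adjusted p = 0.0032 and -0.60 ± 0.13 SE, adjusted p = 0.00304). Of 22 readers of these marks 6 were higher and 3 lower. Spin1, a reader of trimethylated lysine 4 of histone H3, was 1960 ± 222 in controls, 2544 ± 289 after 20 pulses and 3265 ± 224 in Ca-free medium (log2 change 0.73 ± 0.09 SE, adjusted p = 0.000224). Mllt1, a reader of acetylated histone H3 in complexes with Dot1l, was 58.3 ± 10.6 in controls, 147 ± 21.4 after 20 pulses and 186 ± 40.6 in Ca-free medium. Of 14 enzymes that make or recycle the methyl and acetyl donors 4 were higher and 1 lower. Ahcy, which clears the methylation by-product S-adenosylhomocysteine, was 4443 ± 251 in controls and 5552 ± 310.4 in Ca-free medium (log2 change 0.32 ± 0.06 SE, adjusted p = 0.00141). Mthfd1 of the folate cycle was higher as well (0.29 ± 0.06 SE, adjusted p = 0.0018). Nmnat1, which makes nuclear NAD, was 42.4 ± 6.12 in controls, 103 ± 73.6 after 20 pulses and 225 ± 31.1 in Ca-free medium. Mllt1 and Nmnat1 were below 100 in all controls and reached the filter only through the treated groups, so no change is given for them, although both are among the counts of called genes above.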

How the data were processed

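The values are linear array intensities of 12 blastocyst samples, made by the authors with MAS5, per the submitters' processing notes, with a version not given in the sources used here. They were deposited by the authors with the same 2% trimmed mean on every array. Per the labels, a PicoPure kit served to purify RNA, which was labelled as biotin cRNA by an assay for small samples. Samples were grouped by title. Nothing in the labels says whether replicates came from different embryo collections. The p-values therefore reflect the spread among these 12 samples alone, which may be technical. The number of arrays limits the precision.

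Each array was rescaled to a trimmed mean of 500, which multiplies deposited values by 3.33, and 32 was added before log2. Probe sets whose signal averaged 100 or more over the arrays were tested with limma 3.58.1 in R 4.3.3 (lmFit over all 3 groups, eBayes with an intensity trend) and Benjamini-Hochberg adjustment over all 27808 probe sets, and a gene was counted by its brightest tested probe set. The platform's annotation gave 1 gene for 34945 probe sets, more than 1 for 932 and no gene for 9160. The script was tested on simulated data. Promoter windows came from a RefSeq table (GRCm38.p6) used for sequences and names, and 10 members had none. The rule for named genes took up to 15 members per comparison with the smallest p among those called without overlap between groups, the fixed list Kdm1a, Kdm5b, Kdm5d, Kdm6a, Kdm6b, Kat2a, Ep300, Crebbp, Ehmt2, Suv39h2, Setdb1, Kmt2a, Kmt2d, Dot1l, Nsd1, Prmt1, Prmt5 and Sirt1, further probe sets that disagree, and the 2 genes of each other list with the smallest p in each comparison. Members, lists and alternatives were chosen with earlier results of these data known. Residuals of arrays with the same replicate number correlated at a mean of 0.02 (-0.06 to 0.10), against -0.005 for other numbers. The samples were therefore not paired, although this does not settle whether the numbers mark shared collections. The alternatives were other scalings, added values, filters, variance models, array weights, a replicate block, other probe set rules, left-out arrays and either pair of controls alone. Added after seeing the data were either pair of Ca-free arrays alone and a writers against erasers difference without members whose main known substrate is no histone.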

Additional observations from a re-analysis of the deposited data

Results flagged for a closer look

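In each group of 4, the highest and lowest array were compared with the others for the 31 members with values on every array, 93 groups in all, and chance alone sets an array apart in about 1 in 20 groups. Ehmt2 was 486 on array 2 of the 20 pulses group while the other 3 arrays lay between 622 and 642, so the gap was 0.87 of the group's range. Suv39h2 was 150 on control 1 while the other controls lay between 210 and 214, a gap of 0.93 of the range. Neither gene was called in any comparison.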

How the results depend on the processing

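The scaling of the arrays moved the counts most, and the cause of the differences between scalings was not tested. In Ca-free medium against control, 7 members were higher and 14 lower as reported, and quantile normalization gave 3 and 8, median scaling 30 and 1, and hybridization control scaling 0 and 42. Between Ca-free medium and 20 pulses the reported 3 and 10 became 0 and 2, 26 and 0, and 0 and 58. After 20 pulses hybridization control scaling gave 3 higher, a minimum signal of 300 gave 1, and controls 3 and 4 alone gave 2. No shares of all genes are given for these settings or for those that follow. Without the intensity trend 2 members were higher in Ca-free medium than in controls. With all probe sets of a gene averaged 1 was higher, and 1 was higher and 16 lower against 20 pulses. With controls 1 and 2 alone 4 were higher, and with controls 3 and 4 alone 4 were higher and 9 lower. Ca-free arrays 2 and 3 alone gave 7 lower against control, and 5 higher and 4 lower against 20 pulses, where arrays 1 and 4 alone gave 16 lower. With the replicate block the counts were 7 and 13 in Ca-free medium against control, 0 and 0 after 20 pulses, and 2 and 11 between the treated groups. Whether the numbers pair the samples is not given in the labels. The block ended the call of Setd1a against control and those of Kmt5a and Prmt2 against 20 pulses.

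Leaving out 1 array gave 3 to 7 higher and 10 to 16 lower in Ca-free medium against control, 0 to 0 and 0 to 0 after 20 pulses, and 0 to 3 higher and 5 to 13 lower between the treated groups. The writers minus erasers difference ranged from -0.15 to -0.0748, from -0.0808 to 0.0293 and from -0.10 to 0.0261 in these fits. Under quantile normalization it was -0.14 in Ca-free medium and -0.0886 after 20 pulses. With controls 1 and 2 alone it was -0.0577 and 0.13, and with controls 3 and 4 alone -0.15 and -0.16. Without members whose main known substrate is no histone it was -0.14 and -0.13. With all probe sets of a gene averaged it was -0.0472 in Ca-free medium against control and -0.0677 against 20 pulses, and with Ca-free arrays 1 and 4 alone 0.0108 and 0.0325. Against 20 pulses it was -0.0457 without probe sets named _x_at or _s_at.

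The genes named next are those whose change turned sign and passed as reported or under the alternative. Under median scaling the change in Ca-free medium against control turned positive for Kat7 (0.0421), Dot1l (0.12), Kmt5b (0.0450), Kat6a (0.10), Setd1a (0.14), Prmt7 (0.0885), Kat2a (0.37), Ehmt2 (0.34) and Kat8 (0.0606). Against 20 pulses it did so for Kmt5c (0.00904), Sirt6 (0.04996), Kat7 (0.25), Setd1a (0.0591), Prmt7 (0.0373), Setdb1 (0.0676), Ep300 (0.35) and Ehmt2 (0.32). Under hybridization control scaling the change against control turned negative for Kmt5a (-0.19), Kdm5b (-0.10), Kdm1a (-0.19) and Prmt1 (-0.36). Against 20 pulses it did so for Kat2b (-0.38), Crebbp (-0.38), Kmt5a (-0.35), Kdm5b (-0.22), Nsd1 (-0.37), Prmt5 (-0.23), Kdm1a (-0.42), Kdm6a (-0.36), Kat2a (-0.46), Prmt1 (-0.44) and Sirt1 (-0.40). With all probe sets of a gene averaged the change against control was -0.0833 for Kat2b and -0.00748 for Setd5, and against 20 pulses -0.33 for Setd5. Of the other values recomputed for named members, 1975 kept direction and side of the threshold, 121 changed sign without passing either way (23 of them under hybridization control scaling and 13 under median scaling), 198 no longer passed and 61 newly passed. Changes of members near the background signal are less precise, and no bounds are given for them.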
